A study of Mus musculus with 6 samples.

Results

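The cytosolic ribosomal protein genes are the 81 of 26027 genes in the count table whose mouse symbol is Rps or Rpl with a number, optionally followed by a, x, y or l, together with Rplp0, Rplp1, Rplp2 and Rpsa. Of these, 32 carry a small-subunit and 49 a large-subunit symbol. GENCODE M21 annotates 79 as protein coding, Rps4l as a transcribed processed pseudogene and Rpl6l as a processed pseudogene. The symbol rule misses core genes that are named otherwise, such as Fau and Rps3a1. RNA came from Lin-/cKit+/eYFP+ cells sorted from whole bone marrow of C57BL/6 mice, described by the labels as immature multipotent progenitors. All mice, controls included, had received tamoxifen. They carried hScl-CreERT, whose Cre recombinase is switched on by tamoxifen, and the R26eYFP reporter, which labels cells in which Cre has acted. The groups were 3 libraries of Srsf2 P95H/+ and 3 of Srsf2 +/+ (wild type). Srsf2 encodes a splicing factor of the SR protein family, and P95H is a substitution found in myeloid disease. Wild-type replicate 1 was a female of 54 weeks. Age was 32 weeks for the remaining 5 libraries. Males gave replicates 2 and 3 of wild type and replicate 3 of P95H/+, and females gave replicates 1 and 2 of P95H/+. Nothing in the labels says that replicates were separate mice, so p-values measure the spread between these libraries, which may in part be technical.

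Each ribosome holds close to one copy of every core ribosomal protein beside its ribosomal RNA, and cells make these proteins in balanced amounts. Most of their messages begin with a run of pyrimidines, the 5′ terminal oligopyrimidine or TOP motif, through which mTOR signalling sets how much of them is translated. Blood formation is sensitive to their dosage. Loss of one copy of genes such as RPS19 or RPL5 causes Diamond-Blackfan anaemia, and loss of RPS14 contributes to the anaemia of 5q- syndrome.

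The start sites of a few genes show how much they vary within the family. RefSeq promoter entries (GRCm38.p6) were matched by symbol for 59 of the 81 genes. The windows below run 15 bases to each side of the annotated start, 5′ to 3′ on the strand of the gene, and capitals mark the longest run of C and T. Rpl7a, Rpl27a and Rpl15 are shown for long runs, Rpl35a and Rps15a for the lowest fold changes between genotypes at a mean of at least 10 CPM, and Rpl36a, Rpl23, Rplp0 and Rps2 for how the replicate 3 libraries departed from the others.
Rpl7a, chr2:26910792-26910821, + strand: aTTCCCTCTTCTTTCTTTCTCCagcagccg
Rpl27a, chr7:109519180-109519209, + strand: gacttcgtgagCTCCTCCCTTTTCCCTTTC
Rpl15, chr14:18270972-18271001, - strand: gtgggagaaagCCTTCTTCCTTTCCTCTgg
Rpl35a, chr16:33056467-33056496, + strand: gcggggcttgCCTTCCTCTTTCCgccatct
Rps15a, chr7:118116133-118116162, - strand: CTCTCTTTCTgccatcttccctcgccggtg
Rpl36a, chrX:134585639-134585668, + strand: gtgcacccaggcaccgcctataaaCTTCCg
Rpl23, chr11:97782425-97782454, - strand: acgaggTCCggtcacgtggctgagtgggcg
Rplp0, chr5:115559452-115559481, + strand: gTCTTCgggtttcgaggaccgcctggttct
Rps2, chr17:24720048-24720077, + strand: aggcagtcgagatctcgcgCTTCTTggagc
Rpl35a has 3 annotated starts with longest runs of 4, 13 and 5, and the one with 13 is shown. A run of at least 8 pyrimidines lay in this window, at one start or more, for 26 of the 59 genes (44.1%), against 13.9% of the 27025 genes in the table. Rpl7a had a run of 21 bases, Rpl27a of 19 and Rpl15 of 17, whereas the longest run at the annotated start of Rpl23 was 3. In the whole 300-base entry, searched on both strands, CCGGAAG, the core bound by ETS factors, lay in 25 genes (42.4%, against 9.93% of all). CTCGCGAG, the core of a palindrome found at housekeeping promoters, lay in 7 (11.9%, against 1.04%), and AAGATGG, a YY1 core, in 9 (15.3%, against 7.28%). TATAAA lay in 6 (10.2%, against 15.7%). These are matches of letters and do not show binding. None of these motifs contains another.

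The shallowest library, P95H/+ replicate 3, had a total of 10747941 counts and the deepest, wild-type replicate 1, had 23010510, and 22074 to 24315 genes had a count. Srsf2 itself was level, at 324, 331 and 343 CPM (counts scaled to the library total) in wild type and 342, 336 and 315 in P95H/+, in replicate order 1, 2, 3, which does not check the substitution. Kit, the surface marker used in the sort, ran from 476 to 548 CPM and Cd34, a progenitor marker, from 303 to 407. Of the list of 7 progenitor markers that holds both, 1 was positive and 6 were negative in P95H/+ against wild type. This split held over 6 libraries (median -0.34) and over the 4 of replicates 1 and 2 (median -0.26), and 0 were called in either. The T cell genes Cd3e and Cd8a stayed at or under 0.348 and 0.391 CPM. The whole list of lineage markers (12 rows, 9 tested) summed to 533, 425 and 204 CPM in wild type and 382, 416 and 234 in P95H/+, and most of each sum was Ptprc, which encodes CD45 of all white blood cells. Over the 4 libraries of replicates 1 and 2, 1 of the 9 was positive and 8 were negative in P95H/+ against wild type (median -0.86), and 0 were called. Both replicate 3 libraries stand apart from the other 4 across all genes, with fewer counts from genes of low GC content, and the comparisons of gene groups below are given with and without them.

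The ribosomal protein genes supplied 2.70% to 4.04% of all counts. The small-subunit genes summed to 15247, 16601 and 16473 CPM in wild type and to 16521, 15671 and 11015 CPM in P95H/+. Values are given throughout in the replicate order 1, 2, 3. The large-subunit genes summed to 21828, 23484 and 21219 CPM in wild type and to 23852, 22370 and 15944 CPM in P95H/+. P95H/+ replicate 3 was the lowest library for both subunits, and the other 5 libraries of the 2 genotypes overlapped. The small-subunit sum was 16107 ± 748 CPM in wild type and 14402 ± 2964 in P95H/+ (SD, n = 3 each), and the large-subunit sum 22177 ± 1172 and 20722 ± 4204 CPM (SD, n = 3 each). In replicates 1 and 2 alone, all members together averaged 38580 CPM in wild type and 39207 in P95H/+. In bulk samples, fewer cells of a type and less RNA per cell cannot be told apart.

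The ratio of small-subunit to large-subunit counts was 0.698, 0.707 and 0.776 in wild type and 0.693, 0.701 and 0.691 in P95H/+. The value of wild-type replicate 3 stood above the other 5, which lay within 0.691 to 0.707. The means were 0.727 ± 0.0427 in wild type and 0.695 ± 0.00516 in P95H/+ (SD, n = 3 each). P95H/+ replicate 3, whose sums were lowest, kept a ratio close to that of the other P95H/+ libraries. The difference of means, P95H/+ minus wild type, was -0.0326 over 6 libraries, -0.0080 without wild-type replicate 3 and -0.0061 without replicate 3 of both genotypes. Compared by replicate number, the P95H/+ value was the lower one for each of the 3 numbers. Equal numbers are not known to be pairs, and P95H/+ replicate 2 (0.701) was above wild-type replicate 1 (0.698).

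**Figure D1:**
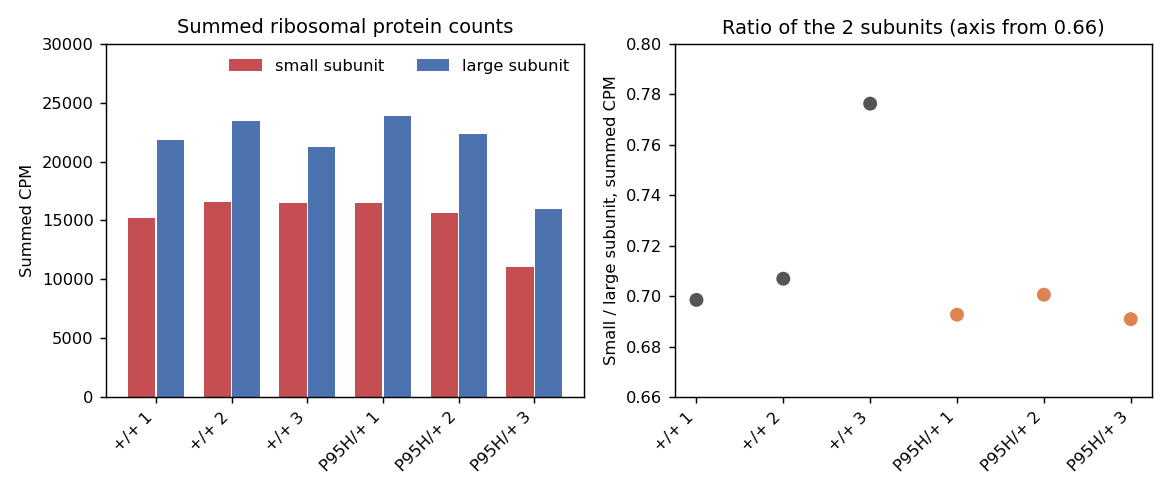
Left, bars give the summed CPM of 32 small-subunit and 49 large-subunit genes in each library. Right, points give the ratio of the small to the large sum in each library, with the axis starting at 0.66 (grey, wild type, orange, P95H/+). P95H/+ replicate 3 has the lowest sums, 11015 and 15944 CPM, and wild-type replicate 3 the highest ratio, 0.776.

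Levels of single genes were compared per kilobase of the main transcript. Rplp1, which with Rplp2 forms the flexible acidic stalk that recruits translation factors, had the highest mean over the 6 libraries, at 1253 CPM per kb. Rps12 followed at 1230, Rplp0 (the stalk base) at 1146, Rps2 (at the messenger RNA entry channel) at 1056 and Rps18 (in the head of the small subunit) at 1023 CPM per kb. The ranges of these 5 genes over the libraries overlapped. Rps12 was above Rplp1 in replicates 1 and 2 of both genotypes, and the order of their means rests on the replicate 3 libraries. At the other end, Rpl3l, the striated muscle form of Rpl3, had 1.05 CPM per kb, the Rpl6l pseudogene 4.0 and Rps4l 6.90. Rpl24, a core protein of the large subunit, had only 7.56 CPM per kb. For Rpl24, 71.5% of exonic bases overlap another gene on the same strand and 80.1% of its 100-base windows occur in other transcripts, so its count is uncertain. Rps20 had 132 CPM per kb, with a main transcript annotated at 3706 bases. Rpl39l, a paralog of Rpl39, had 5 or fewer counts in each library and was not tested.

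Near-identical copies could affect many of these values, and the size of any effect was not tested. Of the 81 genes, 73 share at least one 100-base window of their main transcript with another annotated gene, 36 share over 50% of their windows, and the median share is 41.4%. Reads from such windows can be dropped or misassigned, and how the counting handled them is not known. Exons of 18 members overlap an exon of a gene on the opposite strand, among them Rpl5, Rpl15, Rps2 and Rps25, and whether counting used strand is not known. The 180 rows named as ribosomal protein pseudogenes held 394, 409 and 321 CPM in wild type and 419, 421 and 172 in P95H/+.

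In replicates 1 and 2 of both genotypes the family was close to level. The highest of these 4 libraries was under 1.2 times the lowest for 74 of the 80 tested genes, with a median ratio of 1.10. The same held for 34.9% of all 17144 tested genes and for 70.5% of those with a mean of at least 100 CPM. Of the 74 members in that range it held for 73. Their median level was 402 CPM, against 170 CPM for all tested genes in the range, and the part of level was not tested. Between genotypes, the means of replicates 1 and 2 on the log2(CPM + 0.5) scale lay within 0.1 of each other for 75 of the 80 genes, or 93.8%. The corresponding shares were 37.8% of all tested genes and 54.0% of those with at least 100 CPM, a range in which 72 of 74 members did so. Rpl15, a Diamond-Blackfan gene of the large subunit, had 211 and 224 CPM in wild type and 227.8 and 220 in P95H/+. Rpl4, which lines the exit tunnel, had 1537 and 1588 CPM in wild type and 1677 and 1548 in P95H/+. Rps3, at the messenger RNA entry site, had 845 and 903 CPM in wild type and 894 and 861 in P95H/+. For these 3 genes the genotypes overlapped in replicates 1 and 2.

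**Figure D2:**
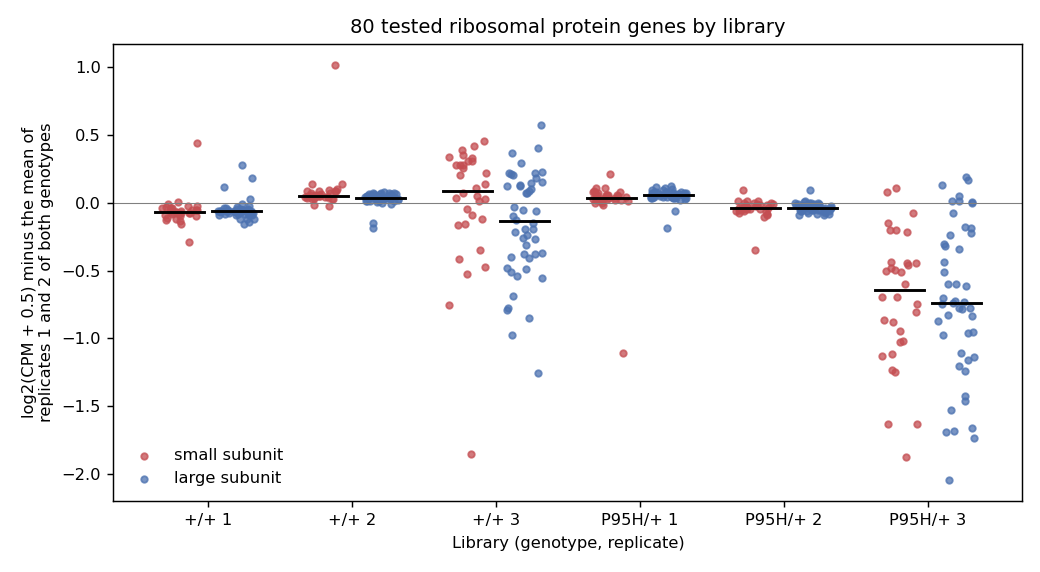
Each point is one of the 80 tested ribosomal protein genes in one library, as log2(CPM + 0.5) minus its mean over replicates 1 and 2 of both genotypes (red, small subunit, blue, large subunit, black line, median). Replicates 1 and 2 form narrow bands, wild-type replicate 3 is wide about its bands, and P95H/+ replicate 3 is wide and low.

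P95H/+ replicate 3 was the lowest of the 6 libraries for 63 of the 80 tested genes, where 35.4% of all tested genes had their lowest value there. On the log2(CPM + 0.5) scale it lay below the mean of P95H/+ replicates 1 and 2 by a median of 0.59 for small-subunit and 0.74 for large-subunit genes, against 0.09 for all tested genes. It lay below by over 1 log2 unit for 21 of the 80 genes, against 13.1% of all tested genes. The range ran from -2.06 for Rpl36a to 0.33 for Rpl3l, a gene under 2 CPM in every library. Among the 74 members of at least 100 CPM the highest difference was 0.13. Wild-type replicate 3 differed from wild-type replicates 1 and 2 in both directions. Its median difference was 0.07 for small-subunit and -0.13 for large-subunit genes. It was the highest library for 32 genes (21.2% of all tested genes) and lay below by over 1 log2 unit for 2 of the 80, Rpl21 among them (8.45% of all tested genes).

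The genes with the lowest and highest values in the replicate 3 libraries, averaged over the genotypes, were 6 by rule. Rpl21, a large-subunit protein, had 512, 508 and 210 CPM in wild type and 518, 474 and 187 in P95H/+. Rpl23, one of the proteins that can bind Mdm2, had 529, 546 and 299 CPM in wild type and 566, 519 and 167 in P95H/+. Rpl36a, on the X chromosome, had 264.3, 277 and 139 CPM in wild type and 298, 257 and 65.97 in P95H/+. These 3 large-subunit genes were low in replicate 3 of both genotypes. Rplp0 had 1383, 1483 and 1928 CPM in wild type and 1499, 1450 and 1591 in P95H/+. Rplp1 had 524, 602 and 858 CPM in wild type and 609, 578 and 582 in P95H/+. Rps2 had 888, 1030 and 1302 CPM in wild type and 1054, 1002 and 1045 in P95H/+. For Rplp0, Rplp1 and Rps2 wild-type replicate 3 was the highest library and P95H/+ replicate 3 lay among or above its own genotype. The genotypes overlapped for all 6.

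**Figure D3:**
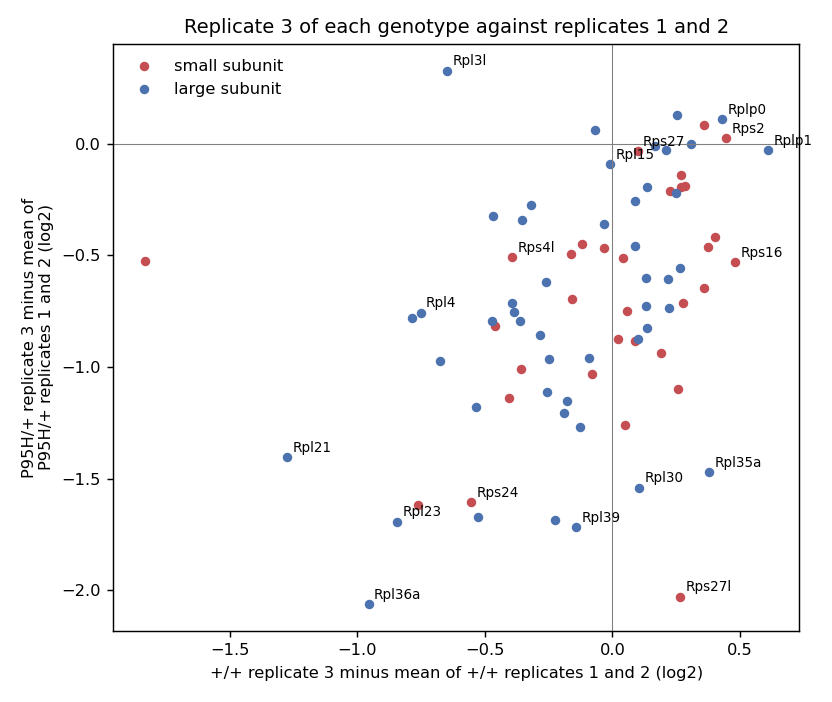
Each point is a tested ribosomal protein gene, with the difference of wild-type replicate 3 from wild-type replicates 1 and 2 on the x axis and of P95H/+ replicate 3 from P95H/+ replicates 1 and 2 on the y axis, both on the log2(CPM + 0.5) scale. Most points lie below 0 on the y axis, and Rpl36a, Rpl21 and Rpl23 lie low on both.

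These departures moved with the GC content of the transcript. Among coding members under 48% GC (14 genes) the median in P95H/+ replicate 3 was -1.19, at 48% to 54% (38 genes) -0.73 and above 54% (26 genes) -0.27. All tested genes in the same ranges had medians of -0.63, 0.02 and 0.58, so the members' median was the lower one in each range. In wild-type replicate 3 the members' medians were -0.22, -0.06 and 0.13, against -0.43, 0.06 and 0.40 for all tested genes. Across the 78 coding members, which share a library and a depth, Pearson's r with GC content was 0.59 for the P95H/+ replicate 3 differences and 0.20 for those of wild-type replicate 3. Members are short, with a median main transcript of 740 bases against 2384.5 for all tested genes. For transcripts under 1 kb the median in P95H/+ replicate 3 was -0.72 for 60 coding members and -0.33 for the 986 other coding genes tested. Members with a pyrimidine run of at least 8 at the annotated start had a median of -0.61 there (26 genes) and those without had -0.70 (32 genes).

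**Figure D4:**
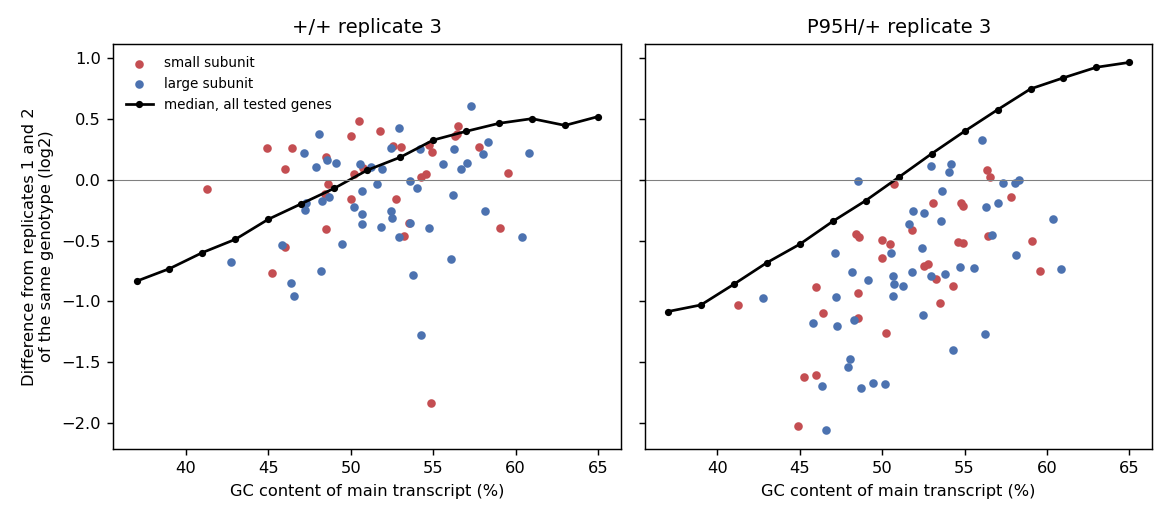
The difference of each replicate 3 library from replicates 1 and 2 of its genotype (log2) against the GC content of the main transcript, for ribosomal protein genes (red, small subunit, blue, large subunit) and as the median of all tested genes in GC bins (black). In P95H/+ replicate 3 most members lie below the black line.

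Other genes of protein synthesis differed in that library in both directions. Rps3a1, a small-subunit protein outside the symbol rule, had 856, 897 and 553 CPM in wild type and 890, 843 and 279 in P95H/+. The median difference of P95H/+ replicate 3 from replicates 1 and 2 was -0.70 for 19 translation factors with TOP messages, -0.35 for 43 ribosome biogenesis genes and -0.51 for 76 mitochondrial ribosomal proteins. For 16 genes of mTOR and Myc control it was 0.58. Cell markers moved in the replicate 3 libraries too. The neutrophil list (12 of 12 genes tested) summed to 7580, 8077 and 11911 CPM in wild type and 9811, 8741 and 10989 in P95H/+. The erythroid list (13 of 13 tested) summed to 1285, 1496 and 1699 CPM in wild type and 1464, 1101 and 2377 in P95H/+. The B and plasma cell list (9 of 9 tested) summed to 129, 137 and 94.2 CPM in wild type and 124, 109 and 170 in P95H/+. The lineage marker list, given above, was at its lowest in both replicate 3 libraries. The part of GC content, transcript length, depth and cell makeup in the low ribosomal protein values was not tested.

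No ribosomal protein gene passed the genotype test. With edgeR's quasi-likelihood test over all 6 libraries, 0 of 17144 genes had a Benjamini-Hochberg adjusted p under 0.05 (0%), and 361 had an unadjusted p under 0.05 (2.11%). A blocked fit on replicate numbers called 1 gene, DESeq2 8, limma voom 0 and limma voom with quality weights 97, and each called 0 of the 80 tested ribosomal protein genes. At an unadjusted p under 0.05 the edgeR test took 1 of the 80, Rps4l. The log2 fold change of P95H/+ against wild type was above 0 for 3 and below 0 for 29 small-subunit genes, with a median of -0.13. It was above 0 for 17 and below 0 for 31 large-subunit genes, with a median of -0.02. Over all tested genes 46.9% were below 0 and the median was 0.02. The split of 20 positive and 60 negative values depended on scaling, with 29 and 51 under DESeq2's size factors and 10 and 70 under library totals. With the GC trend of each library taken out as an offset, 27 were positive and 53 negative, with medians of -0.10 for the small and -0.01 for the large subunit. With sex in the model, 16 were positive and 64 negative. The medians were then -0.22 for the small and -0.19 for the large subunit, against -0.04 for all tested genes.

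Most of the negative values rested on P95H/+ replicate 3. Without that library 58 members were positive and 22 negative, with medians of 0.03 for the small and 0.10 for the large subunit. Without replicate 3 of both genotypes, 144 of 17371 genes were called (0.829%) and 0 of the 80 members. Both P95H/+ libraries of this fit came from females of 32 weeks. The wild-type libraries came from a female of 54 weeks and a male of 32 weeks. Each wild-type library thus also differed in age or sex, which cannot be told apart from genotype in this fit. At an unadjusted p under 0.05, 2 of the 80 were taken, Rps4l and Rps27l (15.6% of all tested genes). In this 4-library fit 70 members were positive and 10 negative, where 49.6% of all genes were positive. Among the 2644 tested genes of at least 100 CPM, 1712 were positive with a median of 0.05, which is also the median of the members in that range. The medians were then 0.04 for the small and 0.05 for the large subunit.

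The 6 lowest fold changes among members of at least 10 CPM were those of Rpl35a, Rps15a, Rpl39, Rpl30, Rps4x and Rpl26. Rpl35a, a Diamond-Blackfan gene, had 222, 238 and 299 CPM in wild type and 239, 226 and 83.6 in P95H/+. Its log2 fold change was -0.40 (SE 0.38) over 6 libraries and 0.05 (SE 0.09) over 4. Rps15a, a small-subunit protein, had 421, 462 and 527 CPM in wild type and 430, 430 and 201 in P95H/+, a log2 fold change of -0.34 (SE 0.30) over 6 libraries and -0.01 (SE 0.09) over 4. For both genes wild-type replicate 3 was the highest library and P95H/+ replicate 3 the lowest, and replicates 1 and 2 of the genotypes overlapped. Rpl39, a small protein of the exit tunnel encoded on the X chromosome, had 240, 259 and 225.5 CPM in wild type and 252, 233.3 and 73.4 in P95H/+ (log2 fold change -0.31, SE 0.41). Rps4x, also X-linked, had 998, 1048 and 1166 CPM in wild type and 1012, 997 and 525 in P95H/+ (-0.27, SE 0.27). Rpl30 and Rpl26 showed the same form, with P95H/+ replicate 3 lowest at 107 and 143 CPM.

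Among the highest fold changes were those of Rpl7a, Rpl28, Rpl13a, Rpl4 and Rpl10a. Rpl7a, a large-subunit protein, had 708, 777 and 595 CPM in wild type and 828, 767 and 659 in P95H/+, with log2 fold changes of 0.19 (SE 0.20) over 6 and 0.13 (SE 0.10) over 4 libraries. The replicate 3 values of Rpl4, 927 CPM in wild type and 954 in P95H/+, were below those of the other 4 libraries. The groups of these 5 genes overlapped. Small nucleolar RNAs lie inside 29 members, 56 in all, and these hosts had median differences in the replicate 3 libraries of -0.09 in wild type and -0.65 in P95H/+, against 0.06 and -0.71 for the other coding members tested.

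**Figure D5:**
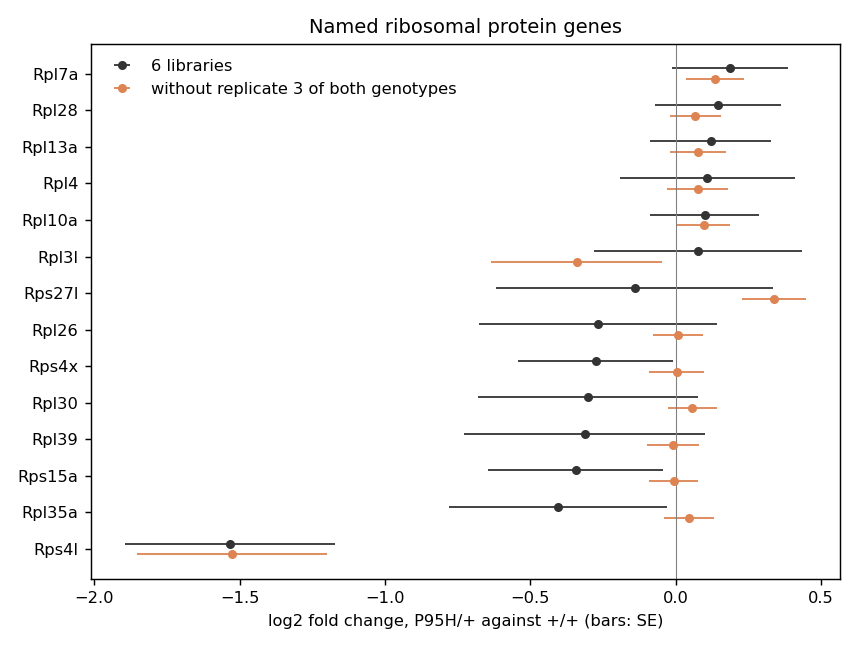
The log2 fold change of P95H/+ against wild type with its SE, from edgeR, for 5 of the highest and the 6 lowest members of at least 10 CPM and the tested paralogs, over 6 libraries (black) and without replicate 3 of both genotypes (orange). Rps4l lies near -1.53 in both, and the other members lie between -0.40 and 0.34.

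Rps4l was the only member whose genotype groups did not overlap. It had 8.52, 13.0 and 7.90 CPM in wild type and 2.58, 4.73 and 2.33 CPM in P95H/+. Every P95H/+ library lay below every wild-type library, from 56, 107 and 25 counts in P95H/+ against 196, 274 and 133 in wild type. Of all tested genes, 5.93% were lower without overlap in the same direction and 7.84% did not overlap in either. The means were 9.80 ± 2.77 CPM in wild type and 3.21 ± 1.32 in P95H/+ (SD, n = 3 each). By edgeR this was a log2 fold change of -1.53 (SE 0.36, adjusted p = 1.00) over 6 libraries, and one of -1.53 (SE 0.33) with an adjusted p of 0.102 over 4. It therefore did not pass the test in either fit, and DESeq2, run over the 6 libraries, gave an adjusted p of 0.137. Rps4l is a single-exon copy of the Rps4 family at chr6:148354656-148355598 (mm10, + strand), and 1.66% of its 100-base windows occur in other transcripts. It lies within Tmtc1 (chr6:148232430-148444389, - strand) and overlaps no annotated exon of it. The groups of Tmtc1, 1 of 15 tested genes within 1 Mb, also did not overlap, against 7.84% of all tested genes. Tmtc1 was under 1 CPM in every library, at 0.913, 0.995 and 0.653 CPM in wild type and 0.415, 0.442 and 0.465 in P95H/+. The groups of the other tested neighbours overlapped. Its log2 fold change was -0.90 over 6 libraries with an unadjusted edgeR p of 0.0304 and an adjusted p of 1.00. Rps4x, the parent-family gene on the X chromosome, overlapped between genotypes, as given above.

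The other paralogs did not separate the genotypes. Rps27l, a paralog of Rps27 that p53 can induce, had 75.6, 91.4 and 99.9 CPM in wild type and 108, 99.2 and 24.9 in P95H/+. In replicates 1 and 2 both P95H/+ values were above both wild-type values, and P95H/+ replicate 3 was the lowest of all. Its log2 fold change was -0.14 (SE 0.48) over 6 libraries and 0.34 (SE 0.11) over 4, with an edgeR adjusted p of 0.205 over 4. Rpl3l had 1.91, 1.47 and 0.891 CPM in wild type and 1.25, 1.37 and 1.77 in P95H/+. Rps27, the main form, was among the steadier genes, at 231.8, 247 and 256 CPM in wild type and 234, 219 and 222 in P95H/+.

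In the acidic stalk 0 of 3 genes were called in either fit. Rplp2 had 407, 454 and 470 CPM in wild type and 443, 423 and 261 in P95H/+. P95H/+ replicate 3 was therefore low for Rplp2, while Rplp1 and Rplp0, the other stalk proteins, were near their own genotype there. Stalk proteins are joined in one complex, and their log2 fold changes were 0.00 (SE 0.20) for Rplp0, -0.09 (SE 0.23) for Rplp1 and -0.17 (SE 0.23) for Rplp2. Without replicate 3 of both genotypes all 3 values were positive, at 0.07 (SE 0.10), 0.11 (SE 0.10) and 0.04 (SE 0.09).

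Of the 20 genes mutated in Diamond-Blackfan anaemia or lost in 5q- syndrome, all were tested and 0 were called in either fit. Over 6 libraries 4 were positive and 16 negative with a median of -0.11, and over 4 libraries 15 were positive and 5 negative with a median of 0.04. Rps14, the 5q- gene, had 485, 528 and 616 CPM in wild type and 497, 483 and 429 in P95H/+. Rps19, the most often mutated gene of the anaemia, had 507, 559 and 554 CPM in wild type and 547, 521 and 318 in P95H/+. In both, P95H/+ replicate 3 was the lowest library and the groups overlapped. Rps24, a small-subunit protein, had 731, 753 and 505 CPM in wild type and 740, 686 and 234 in P95H/+, and was low in both replicate 3 libraries.

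Rpl5 and Rpl11 bind 5S ribosomal RNA, and when ribosome assembly is disturbed this particle can hold Mdm2 and so raise p53. Rpl5 had 381, 397 and 243 CPM in wild type and 407, 382 and 201 in P95H/+. Rpl11 had 402, 428 and 299 CPM in wild type and 440, 400 and 242.2 in P95H/+. Both were low in the replicate 3 libraries of both genotypes and overlapped between genotypes. Of the 6 genes of this list 0 were called over 6 libraries and 1 over 4, Cdkn1a, the p21 inhibitor of cell cycle kinases and a p53 target. Of all tested genes, 0% were called over 6 libraries and 0.829% over 4. Cdkn1a had 50.6, 59.8 and 35.4 CPM in wild type and 20.2, 22.6 and 29.03 in P95H/+. Its groups did not overlap, and 5.93% of all tested genes were likewise lower in P95H/+ without overlap. Its log2 fold change was -0.95 (SE 0.28) over 6 libraries and -1.34 (SE 0.12) over 4, with edgeR adjusted p-values of 1.00 and 0.00128. In the 4-library fit genotype cannot be told apart from age and sex, as given above. An exon of a gene on the opposite strand overlaps Cdkn1a. Mdm2 had 115, 103 and 69.1 CPM in wild type and 88.3, 95.3 and 50.9 in P95H/+. Trp53, which encodes p53, had 187, 198 and 218 CPM in wild type and 213, 206 and 363 in P95H/+.

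Other genes of ribosome production gave 0 calls in either fit, where 0% of all tested genes were called over 6 libraries and 0.829% over 4. Of all tested genes, 9097 of 17144 were positive over 6 libraries and 49.6% over 4. Among the 2644 tested genes of at least 100 CPM, 1889 were positive over 6 libraries (median 0.09) and 1712 over 4 (median 0.05). Of 43 tested ribosome biogenesis genes 37 were positive and 6 negative over 6 libraries, with a median of 0.20, and 41 and 2 over 4 with a median of 0.19. Nhp2, a protein of pseudouridine-guiding particles, had 81.3, 90.6 and 82.6 CPM in wild type and 112, 103 and 95.5 in P95H/+. The groups of Nhp2 did not overlap, and its log2 fold change was 0.36 (SE 0.18) over 6 libraries, with an adjusted p of 0.131 over 4 by edgeR. Ubtf, an RNA polymerase I factor, had 235.4, 256 and 220 CPM in wild type and 278, 259 and 316 in P95H/+. Of 76 mitochondrial ribosomal protein genes, 62 were positive and 14 negative over 6 libraries (median 0.12) and 73 and 3 over 4 (median 0.20). Mrps27 had 25.4, 25.5 and 29.4 CPM in wild type and 32.3, 29.8 and 32.1 in P95H/+, and Mrpl2 had 41.3, 47.0 and 33.2 against 49.3, 49.8 and 51.3. Among 19 translation factors with TOP messages 13 were positive and 6 negative over 6 libraries (median 0.07) and 16 and 3 over 4 (median 0.09), with Pabpc1, the poly(A)-binding protein, at 2339.8, 2314 and 915 CPM in wild type and 2509.6, 2512 and 2264 in P95H/+. Of 16 genes of mTOR and Myc control, 12 were positive and 4 negative over 6 libraries (median 0.12) and 9 and 7 over 4 (median 0.04). Larp1, which binds TOP messages, had 554, 593 and 553 CPM in wild type and 663, 621 and 967 in P95H/+, and Eif4ebp1, a translational repressor under mTOR, had 34.2, 40.5 and 41.8 against 45.5, 42.7 and 74.4. Nhp2, Ubtf, Mrps27, Mrpl2, Larp1 and Eif4ebp1 were each higher in P95H/+ without overlap, as were 1.91% of all tested genes, and they were named because their p was among the smallest of their list. Members of these lists were not adjusted over each list alone, and differences between lists were not tested.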

How the data were processed

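Total RNA of the 6 sorted samples was depleted of ribosomal RNA and sequenced as paired reads from a stranded kit, per the labels' protocols. The deposited table holds raw counts per gene. The authors' CPM tables were checked against it, and those of the unfiltered table equalled each count over its library total within 5e-04. The submitters' processing notes name Trim Galore, cutadapt, STAR 2.5.3a, Picard 1.96, featureCounts, Subread 1.5.1, edgeR, limma and mm10, without roles, and the strand setting and handling of reads with several matches are not given in the sources used here. All results start from the counts, and CPM are scaled by the whole library total.

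Genotypes were compared over all genes with edgeR 4.0.16 in R 4.3.3 (TMM scaling, filterByExpr, robust quasi-likelihood, two-sided, Benjamini-Hochberg), and SE were derived from the F statistic. Alternatives used DESeq2 1.42.0 and limma 3.58.1, and the edgeR fits were tested on simulated data. The simulated libraries had no departure of replicate 3 and no GC trend, so they do not show whether a change could be called in these data. Transcript length, GC content, overlaps and coordinates came from GENCODE M21, with the shortest transcript of the best principal class as main transcript. Motifs came from RefSeq promoter entries. Of the 80 tested members, 74 average at least 100 CPM.

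Members and lists were chosen with earlier results of these data known. Named members were the 6 highest and 6 lowest fold changes at a mean of at least 10 CPM, the 5 highest and lowest levels per kb, paralogs, stalk, disease genes, members whose groups do not overlap, and the 3 highest and 3 lowest in replicate 3. One gene that the rule takes is not reported here. Of other lists the 2 genes with the smallest p were named. Rps3, Mdm2, Tmtc1 and the cell markers printed fall outside this rule and were chosen after their values were seen. Replicate numbers were checked for pairing by the correlation of deviations from group means across genes. It was 0.372, 0.348 and 0.613 for numbers 1, 2 and 3, each above the 0.1 taken to mark pairs. Unlike numbers also passed that mark, at 0.463 for wild-type replicate 1 with P95H/+ replicate 2 and 0.386 for wild-type replicate 2 with P95H/+ replicate 1. The check therefore cannot tell whether equal numbers are pairs. Alternatives were other scalings, filters and tests, sex, the replicate block and GC or length offsets in the model, and leaving out each library or both replicate 3 libraries.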

Additional observations from a re-analysis of the deposited data

How the results depend on the processing

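None of the ribosomal protein genes was called under any of the 20 other settings. Over all genes, against 0 called, DESeq2 called 8, limma voom with quality weights 97, the model with the replicate block 1, the block with a GC correction 1, and the fit without replicate 3 of both genotypes 144. Leaving out each library in turn called 0 to 1. The members' medians and sums moved by less than the spread between libraries, but their sign changed too. Without replicate 3 of both genotypes, the median went from -0.128 to 0.042 (small subunit) and from -0.025 to 0.054 (large). The log2 ratio of the summed CPM went from -0.161 to 0.016 (small) and from -0.098 to 0.029 (large). The sign also changed for single genes. Without replicate 3 of both genotypes, the log2 fold change was 0.0094 for Rpl26, 0.058 for Rpl30, 0.046 for Rpl35a, -0.34 for Rpl3l, 0.34 for Rps27l and 0.0043 for Rps4x. With quality weights it was -0.19 for Rpl3l and 0.21 for Rps27l, and with sex in the model -0.080 for Rpl4. Leaving out 1 library gave Rpl26 from -0.55 to 0.10, Rpl28 from -0.0014 to 0.27, Rpl30 from -0.57 to 0.046, Rpl39 from -0.61 to 0.060, Rpl3l from -0.17 to 0.34, Rpl4 from -0.11 to 0.31 and Rps27l from -0.48 to 0.27. The cause was not tested, beyond the samples left out. Rps4l kept its sign in all, from -1.90 to -1.26. With 3 libraries a genotype, an exact two-sided permutation test of one value cannot go below 0.1.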
